A study of Mus musculus with 12 samples.

Results

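The circadian clock genes described here are Per1, Per2, Per3, Cry1, Cry2, Arntl, Clock, Dbp, Nr1d1 and Nr1d2, chosen by name as the core of the mammalian clock and its best known output. All 10 were found once each among the 34745 genes of the deposited table, and all 10 passed the filter on low counts. They were measured by RNA sequencing in the medial prefrontal cortex (mPFC), a frontal cortical area known for its role in emotion, attention and the experience of pain, of wild-type (WT) male mice at day 28. Mice with chronic constriction injury (CCI), in which the left sciatic nerve is operated on as a model of neuropathic pain, gave 4 libraries of the contralateral (right) mPFC and 4 of the ipsilateral (left) mPFC. They were set against 4 libraries of naive mice, which had no treatment and a habituation up to day 28, with no hemisphere given in the labels. A sham operation is not part of the data analysed here, so the operation itself and the nerve injury cannot be told apart. The library codes number the CCI mice from 1 to 4 with a letter for the side, which was read as 4 mice with 2 hemispheres each, although the labels do not say so outright. No source used here gives the hour of tissue collection or the light schedule.

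The clock of mammalian cells is a feedback loop of transcription. CLOCK and ARNTL (also called BMAL1) bind E-box sequences as a pair and switch on the Per and Cry genes, whose proteins return to the nucleus and repress that pair. The same pair drives Nr1d1 and Nr1d2, whose products (REV-ERB alpha and beta) repress Arntl, and Dbp, whose product activates other genes through D-box sequences. In a tissue with a running clock, Dbp and Nr1d1 peak far from Arntl in the day, and the levels of all of them depend on the hour of sampling.

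Total counts ranged from 16.1 to 20.6 M per library. The members were well covered, with 178 to 3776 counts per gene and library. Expression is given as CPM, the count of a gene relative to the TMM-scaled total of its library, and differences as log2 fold changes from edgeR's quasi-likelihood test with Benjamini-Hochberg adjustment over all tested genes. A gene passed at an adjusted p under 0.05. Nothing in the labels says how samples were randomised or handled, so p-values measure only the spread between these samples, which may in part be technical. The libraries carried cortical excitatory neuron markers (4 genes), which summed to 1962 to 2496 CPM, against 2.28 to 8.77 CPM for 4 choroid plexus markers. No marker of the mPFC itself was listed. The 5 striatal markers summed to 252 CPM in contralateral 1, against 112 to 150 CPM in the other libraries, and the reason was not tested. In this bulk tissue, fewer cells of a type and less RNA per cell cannot be told apart.

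Per length, Nr1d1, Cry2 and Nr1d2 were the most abundant members. Nr1d1 had the highest level, with a mean of 49.0 FPKM (fragments scaled to gene length and library size, as deposited by the authors) over the 12 libraries and a range of 42.4 to 55.9 FPKM. Cry2 followed with 26.5 FPKM (24.6 to 27.8) and Nr1d2 with 19.7 FPKM (17.6 to 21.1), and neither of these ranges touched that of the gene above it. Dbp (14.0 FPKM), Arntl (13.7 FPKM) and Per1 (11.4 FPKM) had ranges that overlapped in the order given, and the highest libraries of Dbp reached the lowest of Nr1d2. Per2 stood at 7.21 FPKM, with its highest library just above the lowest of Per1. Per3 (4.95 FPKM), Cry1 (4.46 FPKM) and Clock (3.22 FPKM) came last, again with overlapping ranges. The gene lengths that the deposited FPKM values imply differ from the exonic lengths in GENCODE vM21 for several members. They are 2904 against 7523 bases for Arntl, 5036 against 2993 bases for Dbp and 22240 against 13727 bases for Clock. The places of these genes, and with them the middle of the order, therefore depend on the gene model.

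**Figure D1:**
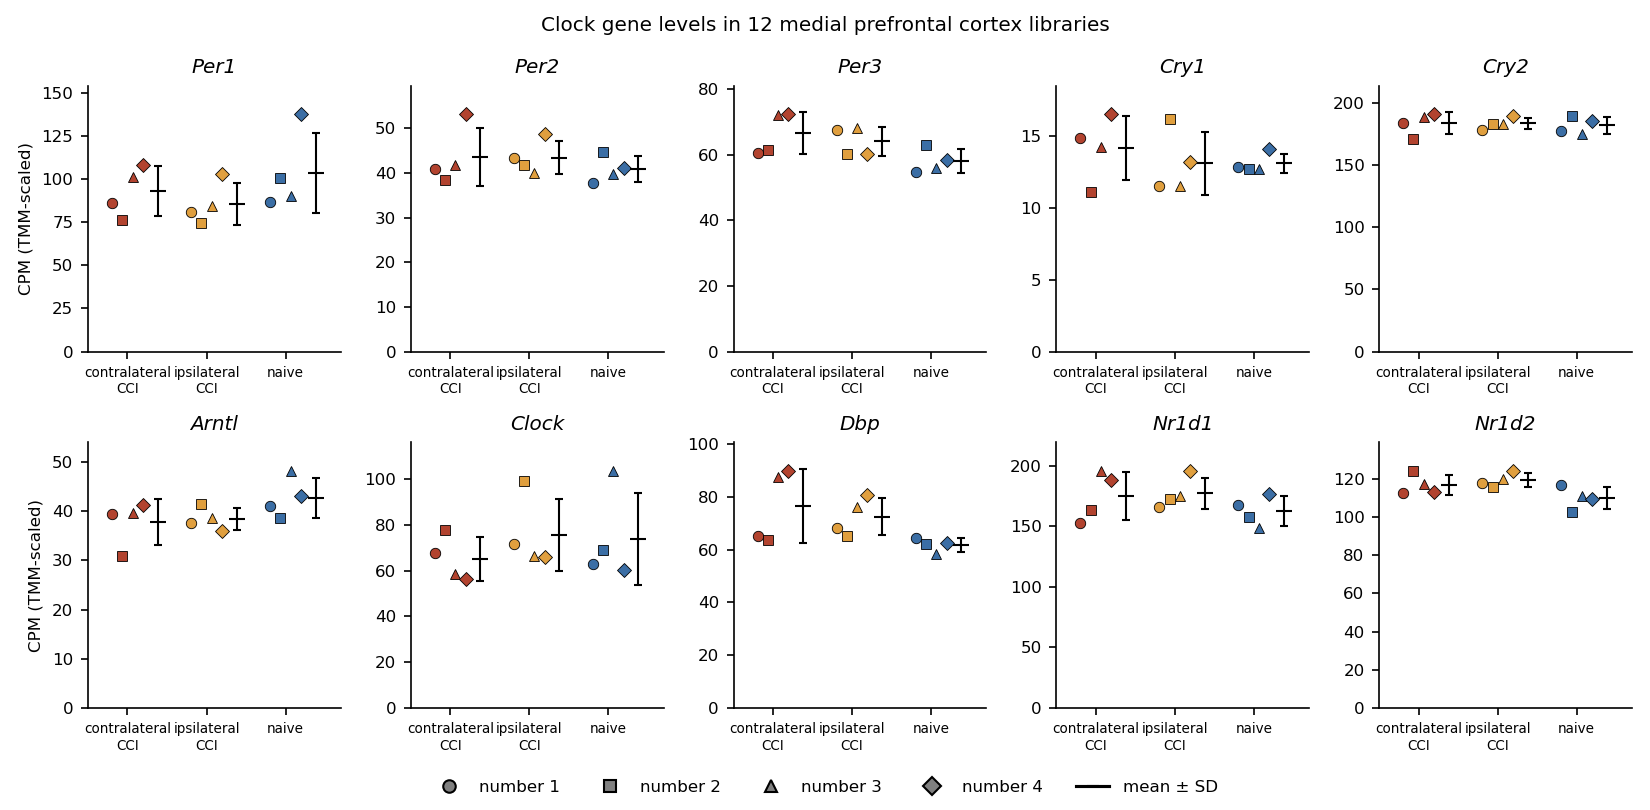
Level of each clock gene in CPM (vertical axes, starting at 0) in contralateral CCI, ipsilateral CCI and naive libraries; symbols mark the replicate number and bars the mean ± SD of 4 libraries. Dbp was highest in contralateral 3 and 4, at 87.8 and 90.0 CPM, and Per1 in naive 4, at 137 CPM.

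The main question was whether clock gene levels differed between CCI mice and naive mice, with the counts of the hemispheres of each CCI mouse summed. No member passed, and the differences were small. Dbp and Per3 had the largest positive fold changes. Per1 had the largest negative one, at 0.861-fold with a wide 95% interval of 0.652 to 1.14, and Arntl followed. Dbp, the output factor of the clock, stood at 1.21-fold the naive level (95% interval 1.05 to 1.39), Per3 at 1.13-fold (1.03 to 1.24) and Arntl at 0.897-fold (0.811 to 0.992), each with an edgeR adjusted p = 1.00. In this comparison 0 of 16179 genes passed (0%) in edgeR, 0 in limma voom and 31 in DESeq2, none of them a member.

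Dbp (ENSMUSG00000059824; chromosome 7, 45705088 to 45710155, GRCm38/mm10) encodes a PAR bZIP transcription factor that cycles widely in many tissues. Its level was 66.6, 64.7, 82.1 and 85.6 CPM in CCI mice 1 to 4, against 64.6, 62.4, 58.2 and 62.7 CPM in naive mice 1 to 4. Every CCI mouse was above every naive mouse, but CCI mice 1 and 2 only by little, while CCI mice 3 and 4 stood well apart. The log2 fold change was 0.27 (SE 0.09). Of the 10 members Dbp alone had groups of mice without overlap, beside 2.71% of all tested genes (1.22% with CCI above naive).

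By hemisphere, Dbp was at 65.1, 63.8, 87.8 and 90.0 CPM in contralateral libraries 1 to 4, and at 68.2, 65.4, 76.2 and 80.7 CPM in ipsilateral libraries 1 to 4, against 64.6, 62.3, 58.2 and 62.7 CPM in naive libraries 1 to 4. The high values came from both hemispheres of mice 3 and 4. The ipsilateral libraries did not overlap with the naive ones (a log2 fold change of 0.23, SE 0.11), as was so for 4.73% of tested genes (1.95% with the ipsilateral side above), and no other member did so. The contralateral libraries overlapped with the naive ones for Dbp and for all other members (2.2% of tested genes did not overlap), at a log2 fold change of 0.31 (SE 0.11). The exons of Dbp share 539 bases (18.0% of its exonic length in GENCODE vM21) with Sphk2 on the opposite strand, and no strand setting of the counting is given. Sphk2, a sphingosine kinase gene, had a log2 fold change of -0.21 (SE 0.06; edgeR adjusted p = 1.00) between CCI and naive mice, opposite in sign to that of Dbp.

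Some cell type markers also differed between libraries with high and low Dbp. The 5 astrocyte markers summed to 845 and 689 CPM in contralateral 1 and 2, and to 3108 and 3206 CPM in contralateral 3 and 4. Ipsilateral libraries went the other way, at 2865, 2760, 720 and 541 CPM in 1 to 4, against 660 to 2838 CPM in naive libraries. Slc1a2 carried this split, while the other 4 astrocyte markers summed to 246 to 420 CPM over all libraries. Summed CPM of 5 oligodendrocyte markers was 4069 and 4521 in contralateral 1 and 2, where Dbp was low, and 2060 and 2005 in contralateral 3 and 4. It was 3875, 2886, 2721 and 2003 in ipsilateral 1 to 4, against 2232 to 2910 in naive libraries. The 6 microglia markers summed to 309 and 262 CPM in contralateral 1 and 2, and to 341 and 390 CPM in contralateral 3 and 4. In ipsilateral 1 to 4 they summed to 270, 282, 287 and 274 CPM, without such a split, against 282 to 339 CPM in naive libraries. Endothelium and blood markers were likewise higher in contralateral 3 and 4 than in contralateral 1 and 2, with no such split in ipsilateral libraries. The part of these shifts in the Dbp values was not tested.

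Per3 (ENSMUSG00000028957; chromosome 4, 151003652 to 151044665) encodes a period protein that is dispensable for a running clock in mice. Its level was 64.1, 61.0, 70.2 and 66.6 CPM in CCI mice 1 to 4, against 54.8, 63.3, 55.9 and 58.5 CPM in naive mice 1 to 4. Naive 2 lay within the CCI range, and the other naive mice lay below it. The log2 fold change was 0.17 (SE 0.06) for mice, 0.20 (SE 0.08) for contralateral against naive and 0.14 (SE 0.08) for ipsilateral against naive libraries. Per3 lies inside Camta1, on the same strand and with no shared exonic base, and Camta1 had a log2 fold change of 0.04 (SE 0.06) between mice. The window around its start site is shown because it carries D-boxes, the element that DBP binds. It spans chr4:151044616-151044915 (GRCm38.p6, minus strand), is read 5′ to 3′ and is taken from RefSeq, with each match to TTATGTAA (both strands searched) in capitals.
Per3: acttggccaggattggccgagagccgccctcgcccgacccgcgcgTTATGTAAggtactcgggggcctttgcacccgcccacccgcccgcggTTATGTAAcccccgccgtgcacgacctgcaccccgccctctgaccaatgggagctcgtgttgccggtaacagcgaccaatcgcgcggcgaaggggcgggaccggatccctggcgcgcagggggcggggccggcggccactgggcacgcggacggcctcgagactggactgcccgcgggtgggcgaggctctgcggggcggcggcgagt
The matches start at -205 and -158 relative to the start site. Such a match occurred in 0.938% of 32851 promoter windows of the same length, and Per3 was the only member with any among the 9 members that have a window in that table.

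Arntl (ENSMUSG00000055116; chromosome 7, 113207465 to 113314122) encodes the partner of CLOCK. Its level was 38.6, 36.8, 39.1 and 38.8 CPM in CCI mice 1 to 4, against 41.0, 38.8, 48.2 and 43.0 CPM in naive mice 1 to 4. The CCI mice lay close together, and naive 2 fell within their range. The log2 fold change was -0.16 (SE 0.07) for mice, -0.18 (SE 0.09) for contralateral and -0.15 (SE 0.09) for ipsilateral against naive libraries. Contralateral 2 was the lowest of all 12 libraries, at 30.8 CPM beside 39.5 to 41.2 CPM in the other contralateral libraries, while the ipsilateral library with the same number was at 41.5 CPM. The window of its downstream start site is shown for a match to the REV-ERB/ROR element, a type of element through which NR1D1 and NR1D2 repress Arntl. It spans chr7:113207261-113207560 (GRCm38.p6, plus strand), with the match to TAGGTCA in capitals.
Arntl: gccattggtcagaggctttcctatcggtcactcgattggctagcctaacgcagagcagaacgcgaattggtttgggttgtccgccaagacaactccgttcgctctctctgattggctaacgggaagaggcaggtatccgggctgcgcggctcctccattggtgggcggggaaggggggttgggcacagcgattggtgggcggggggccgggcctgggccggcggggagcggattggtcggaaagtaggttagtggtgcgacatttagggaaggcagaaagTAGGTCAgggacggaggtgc
The match starts at 30 bases after the start site, and 2.61% of all promoter windows held such a match on either strand. Whether this match is used was not tested.

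Dbp was also set against Arntl within each mouse. The log2 of the Dbp level over the Arntl level was 0.79, 0.81, 1.07 and 1.14 in CCI mice 1 to 4, against 0.65, 0.69, 0.27 and 0.54 in naive mice 1 to 4. The groups of mice did not overlap, with CCI 1 nearest to naive 2. That was already so for Dbp alone, so the ratio adds no separate evidence. In single libraries the groups did overlap, since ipsilateral 2 stood at 0.66 and naive 2 at 0.69. This ratio was formed after the values were seen and is given as a description without a test.

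**Figure D2:**
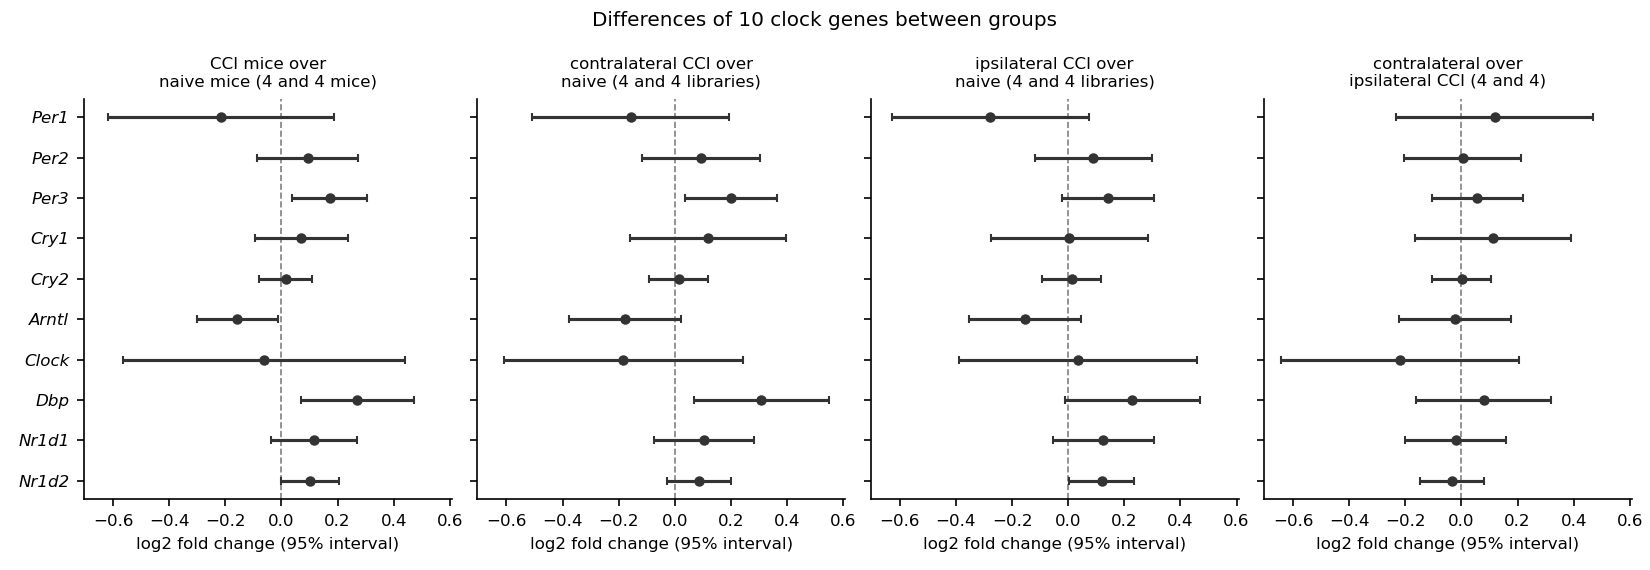
Log2 fold change of each clock gene (points) with its 95% interval (bars) from edgeR, for CCI over naive mice, for contralateral and ipsilateral CCI over naive libraries and for contralateral over ipsilateral CCI libraries. Between mice Dbp stood at 0.27, Per3 at 0.17, Arntl at -0.16 and Per1 at -0.22, and the intervals of Per1 and Clock were the widest.

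The repressors Nr1d1 and Nr1d2, which share their driver with Dbp, had small positive fold changes in CCI mice. Nr1d1 (ENSMUSG00000020889; chromosome 11, 98767932 to 98775333) was at 159, 169, 185 and 192 CPM in CCI mice 1 to 4, against 167, 158, 149 and 177 CPM in naive mice 1 to 4, and the groups overlapped. Its log2 fold change was 0.12 (SE 0.07). Its exons share 263 bases (8.55%) with Thra on the opposite strand, a thyroid hormone receptor gene, whose log2 fold change was 0.03 (SE 0.05). Nr1d2 (ENSMUSG00000021775; chromosome 14, 18204054 to 18239127) was at 115, 120, 119 and 119 CPM in CCI mice 1 to 4, against 117, 103, 111 and 110 CPM in naive mice 1 to 4. Naive 1 lay among the CCI mice and the other naive mice below them. Its log2 fold change was 0.10 (SE 0.05), and this gene and Cry2 varied least among the members, with within-group SDs of 0.06 and 0.05 on the log2 scale beside a median of 0.16 over all tested genes.

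The other period and cryptochrome genes had groups that overlapped. Per2 (ENSMUSG00000055866; chromosome 1, 91415982 to 91459324), a core repressor, was at 42.0, 40.3, 40.9 and 51.1 CPM in CCI mice 1 to 4, against 37.8, 44.7, 39.8 and 41.1 CPM in naive mice 1 to 4. CCI 4 stood above all others in both hemispheres (53.1 CPM contralateral and 48.8 CPM ipsilateral), and the log2 fold change of 0.09 (SE 0.08) was 0.0085 without it. Cry2 (ENSMUSG00000068742; chromosome 2, 92403646 to 92434043), the more abundant cryptochrome, was at 184 ± 8.87 CPM in contralateral and 184 ± 4.54 CPM in ipsilateral libraries, against a naive mean of 182 ± 6.58 CPM (SD, n = 4 each). Its fold for CCI over naive mice was 1.01 with a 95% interval of 0.946 to 1.08, the narrowest of the 10.

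Cry1 (ENSMUSG00000020038; chromosome 10, 85131702 to 85185054) had the lowest counts of the members. It was at 14.9, 11.1, 14.2 and 16.5 CPM in contralateral libraries 1 to 4, and at 11.5, 16.2, 11.5 and 13.2 CPM in ipsilateral libraries 1 to 4, against 12.8, 12.7, 12.7 and 14.1 CPM in naive libraries 1 to 4. The CCI libraries spread widely on both sides of the naive ones, and hemispheres of the same mouse went apart, with a right minus left difference of -0.54 on the log2 scale in mouse 2 and up to 0.36 in the other mice. Within groups its level followed meningeal and fibroblast markers. Among 14111 other named genes, the closest to Cry1 over the 12 libraries (levels centred on each group's mean) were Kdm2b, Fam13c, Fmod, Slc6a13 and Slc22a6, with Pearson r of 0.95 to 0.97, and Fmod and Slc6a13 stand on the meningeal list. All 6 markers of that list had an r of 0.82 to 0.96 with Cry1, including these picked genes. Dcn, Col1a1, Col1a2 and Lum, which were not among the closest, had an r of 0.82 to 0.94. Between CCI and naive mice the directions differed. Cry1 had a log2 fold change of 0.07 (SE 0.08), while all 6 markers were negative (median -0.20). The markers summed to 42.8, 14.4, 34.7 and 50.05 CPM in contralateral libraries 1 to 4. In ipsilateral libraries 1 to 4 they summed to 18.3, 37.4, 18.6 and 19.7 CPM, against 31.7 to 44.5 CPM in naive libraries. None of the 6 was at 0 in any library, with 5 counts as the lowest, and the part of these markers in the Cry1 level was not tested. This search for Cry1 was added after its values were seen.

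The window of the Cry1 start site is shown for a match to the E-box, the element that the CLOCK and ARNTL pair binds. It spans chr10:85185005-85185304 (GRCm38.p6, minus strand), with the match to CACGTG in capitals.
Cry1: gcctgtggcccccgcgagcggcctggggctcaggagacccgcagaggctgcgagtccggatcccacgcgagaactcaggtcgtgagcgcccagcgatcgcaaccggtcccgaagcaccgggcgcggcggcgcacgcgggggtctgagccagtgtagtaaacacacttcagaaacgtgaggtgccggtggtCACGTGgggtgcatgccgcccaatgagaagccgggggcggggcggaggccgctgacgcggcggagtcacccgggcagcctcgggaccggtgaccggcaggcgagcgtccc
The match starts at -60, and 7.15% of all promoter windows held one. Among the members, the upstream of the Per1 windows held the only other one.

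**Figure D3:**
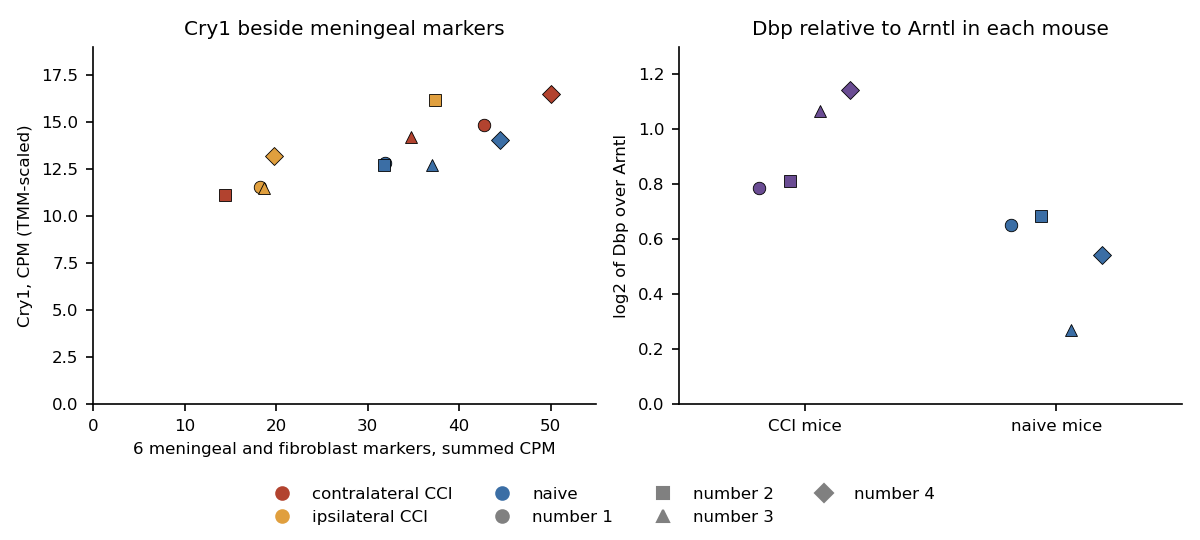
Left, Cry1 level against the summed level of 6 meningeal and fibroblast markers, both in CPM, in 12 libraries; right, log2 of Dbp over Arntl in 4 CCI mice (hemispheres summed) and 4 naive mice, with symbols for the replicate number. Cry1 ran from 11.1 CPM in contralateral 2 to 16.5 CPM in contralateral 4, the libraries with the lowest and the highest marker level, and the ratio was 0.79 to 1.14 in CCI mice and 0.27 to 0.69 in naive mice.

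Per1 (ENSMUSG00000020893; chromosome 11, 69095217 to 69109960) is a period gene that neuronal activity and glucocorticoids also induce, and it was set beside genes of those responses. It was at 86.3, 76.1, 101 and 108 CPM in contralateral libraries 1 to 4, and at 80.9, 74.2, 84.3 and 103 CPM in ipsilateral libraries 1 to 4, against 86.8, 100, 90.2 and 137 CPM in naive libraries 1 to 4. The library numbered 4 was the highest of each group, as was so for 2.03% of 15808 tested genes, and naive 4 was the highest of all. The log2 fold change between CCI and naive mice was -0.22 (SE 0.17). It rested largely on naive 4, without which it was -0.05, and without naive 4 the contralateral difference changed sign, to 0.01 from -0.16.

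What the replicate numbers stand for is not stated, and the labels tie numbers of CCI mice to those of naive mice in no way. Across the 4 CCI and 4 naive mice, a test of the number with the group as covariate asked whether same-numbered mice had levels in common. For Per1 the levels of the 4 numbers spanned 0.50 on the log2 scale, with an edgeR unadjusted p = 0.00831 but an adjusted p = 1.00. Without naive 4 its unadjusted p was 0.152. No member passed, and Per1 was the only member at an unadjusted p under 0.05, as 3.34% of all tested genes were. Only 11 of 16179 genes passed (0.068%), and 3 of them were immediate early genes, the first genes that active neurons switch on.

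The immediate early genes had a much wider span than Per1 in the same mice. All 13 on the list were at an unadjusted p under 0.05 for the replicate number, with a median span of 1.66 on the log2 scale beside 0.18 over all tested genes, and Btg2 (adjusted p = 0.00375), Dusp1 (0.00842) and Nr4a1 (0.012) passed in edgeR. Their summed level was 615, 766, 1098 and 1429 CPM in contralateral libraries 1 to 4 and 701, 842, 991 and 1280 CPM in ipsilateral libraries 1 to 4, against 420, 736, 854 and 1511 CPM in naive libraries 1 to 4. The libraries numbered 4 were the highest in all 3 groups and those numbered 1 the lowest. Over the 12 libraries, with group means removed, the r of Per1 with these 13 genes had a median of 0.76 and ranged from -0.32 (Nr4a3) to 0.88 (Egr4). Their part in the Per1 level was not tested.

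**Figure D4:**
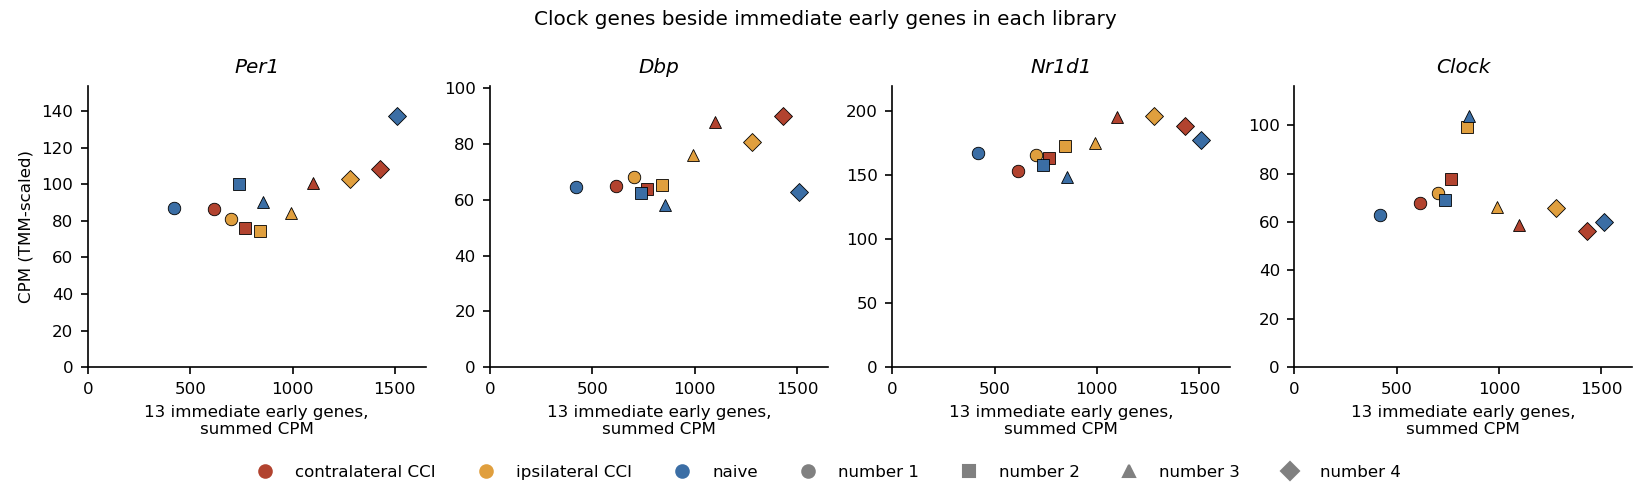
Levels of Per1, Dbp, Nr1d1 and Clock in CPM (vertical axes, starting at 0) against the summed CPM of 13 immediate early genes in each library, with colours for the group and symbols for the replicate number. Per1 was highest in naive 4 (137 CPM), where the immediate early genes summed to 1511 CPM, and Dbp in that library was at 62.7 CPM.

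Among the 8 CCI libraries, the 4 with the highest Dbp (mice 3 and 4) were also the 4 with the highest immediate early gene sums, and the part of those genes in the Dbp values was not tested. In naive 4, the library with the highest immediate early gene sum, Dbp was at 62.7 CPM. The test of Dbp for the replicate number gave an edgeR adjusted p = 1.00 (unadjusted 0.412). The downstream window of Per1 is shown for a match to the core of the cyclic AMP response element, a type of element through which activity acts on Per1. It spans chr11:69099902-69100201 (GRCm38.p6, plus strand), with the match to TGACGT in capitals.
Per1: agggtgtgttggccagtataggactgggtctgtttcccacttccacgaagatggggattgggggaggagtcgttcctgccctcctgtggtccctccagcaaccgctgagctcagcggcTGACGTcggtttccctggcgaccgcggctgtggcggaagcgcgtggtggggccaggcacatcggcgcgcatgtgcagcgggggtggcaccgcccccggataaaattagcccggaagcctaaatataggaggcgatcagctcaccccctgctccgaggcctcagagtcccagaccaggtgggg
The match starts at -132, and 7.51% of all promoter windows held these letters on either strand, with Per1 the only member among them. The full palindrome TGACGTCA was in 1.79% of all windows and in 0 of the member windows. Whether the match in Per1 is used was not tested.

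Glucocorticoids are the other known input to Per1. Of 12 glucocorticoid response genes, 10 had a positive and 2 a negative fold change between CCI and naive mice (median log2 0.07, beside 0.00 over all tested genes), and 0 passed. Their summed level was 383 to 405 CPM in contralateral and 361 to 387 CPM in ipsilateral libraries, against 343 to 376 CPM in naive libraries. Zbtb16, a hormone-induced transcription factor gene, was at 42.7 to 51.2 CPM in contralateral and 45.4 to 52.5 CPM in ipsilateral libraries, against 36.2 to 42.0 CPM in naive libraries (log2 fold change between mice 0.23, SE 0.07; edgeR adjusted p = 1.00). Tsc22d3, which encodes the glucocorticoid-induced leucine zipper, stood at 0.27 (SE 0.08; edgeR adjusted p = 1.00). These were the 2 of smallest p-value among the 12. Fkbp5 was at 0.001 (SE 0.06) and Sgk1 at 0.08 (SE 0.06), and the 2 negative genes were Pdk4 (-0.12, SE 0.13) and Errfi1 (-0.06, SE 0.06). Per1 had a sign opposite to that of Zbtb16 and Tsc22d3, at -0.22 (SE 0.17), or -0.05 without naive 4. The part of these genes in the Dbp and Per3 values was not tested.

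Clock (ENSMUSG00000029238; chromosome 5, 76209868 to 76304792) varied more between libraries than the other members, with a within-group SD of 0.29 on the log2 scale. It was at 67.9, 77.6, 58.6 and 56.4 CPM in contralateral libraries 1 to 4, and at 71.8, 99.1, 66.2 and 65.8 CPM in ipsilateral libraries 1 to 4, against 62.8, 69.0, 104 and 60.1 CPM in naive libraries 1 to 4. Ipsilateral 2 and naive 3 stood far above the rest, and contralateral 2 was the highest of its side. The library numbered 4 was the lowest of each group, as was so for 2.06% of 15808 tested genes. The fold for CCI over naive mice was 0.958 with a 95% interval of 0.676 to 1.36, the widest of the 10. Its sign turned when naive 3 was left out (log2 0.15, against -0.06 with all mice) and was lost at 0.0016 without CCI 4. For the replicate number its unadjusted p was 0.454 with all mice, 0.000459 without CCI 3 and 0.0126 without naive 3 (edgeR), and the lowest adjusted p of these was 0.157. Within groups Clock ran against Dbp, Per1 and Nr1d1, with r of -0.69, -0.66 and -0.65 over the 12 libraries, while Dbp and Nr1d1 ran together with an r of 0.85. These r values are descriptions over libraries that share mice. Clock lay furthest from its group mean in ipsilateral 2 and naive 3, by 0.41 and 0.52 on the log2 scale.

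No member passed between the hemispheres of CCI mice. Over contralateral and ipsilateral libraries the log2 fold changes ran from -0.22 (Clock, SE 0.19) to 0.12 (Per1, SE 0.16), with a median of 0.00, and edgeR adjusted p-values of 0.760 or more. No gene passed in this comparison (0% of 15808), and 0 members were at an unadjusted p under 0.05, beside 8.36% of all tested genes. The sides overlapped in all 10 members, while 2.95% of tested genes did not overlap. Per1 was higher on the right in all 4 mice, by 0.04 to 0.26 on the log2 scale. Clock was lower on the right in all 4, by -0.08 to -0.35. In the edgeR fit without pairing their unadjusted p-values were 0.472 and 0.281. The share of all tested genes with the same sign in all 4 mice was not computed. Sides were paired by number here, a reading that the correlations between same-numbered libraries do not bear out. Dbp was higher on the right in mice 3 and 4 and lower there in mice 1 and 2, between -0.07 and 0.20.

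Counts at an unadjusted p under 0.05 by edgeR give the full tally. Between CCI and naive mice 3 of 10 members were there (Dbp, Per3 and Arntl), beside 4.2% of all tested genes. For contralateral against naive libraries it was 2 of 10 (Dbp and Per3), beside 3.78%, and for ipsilateral against naive 1 of 10 (Nr1d2), beside 4.83%. At an adjusted p under 0.05 the count was 0 in each with edgeR, limma voom and DESeq2, and over all genes edgeR called 0 of 15808 in both library comparisons (0%), where DESeq2 called 3 on the contralateral and 9 on the ipsilateral side. Positive fold changes were found in 7 of 10 members between mice, beside 50.3% of all tested genes. On the contralateral side it was 7 of 10, beside 50.1%, and on the ipsilateral side 8 of 10, beside 49.9%. The library comparisons and the comparison of mice share the naive samples and, in part, the CCI counts.

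Among 32 other genes of the clock pathway none passed in any comparison. Between CCI and naive mice 19 had a positive and 13 a negative fold change, with a median log2 of 0.01 (0.00 over all tested genes), and 0 passed or were at an unadjusted p under 0.05. The smallest p-values belonged to the nuclear receptor gene Rorb (-0.27, SE 0.18), the deubiquitinase gene Usp2 (0.10, SE 0.08), Timeless (0.14, SE 0.11), the casein kinase gene Csnk1a1 (-0.07, SE 0.05) and the deacetylase gene Hdac3 (0.09, SE 0.07). For contralateral against naive libraries they belonged to Timeless (0.26), Csnk1a1 (-0.13), Tef (0.34), Rorb (-0.28) and Hdac3 (0.16). For ipsilateral against naive they belonged to Prkaa2 (0.15), Hlf (0.22), Tef (0.33), Rorb (-0.26) and the ubiquitin ligase gene Btrc (0.07). None of these passed (edgeR adjusted p = 0.972 or more).

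Between the hemispheres 3 of the 32 were at an unadjusted p under 0.05 in edgeR, a share near the 8.36% of all tested genes, and 0 passed. These were Prkaa2 (-0.18), Btrc (-0.15) and Rora (-0.20), with a lower level on the contralateral side, followed by Hlf (-0.25) and Timeless (0.25). Tef and Hlf encode relatives of DBP. Tef was at 317 to 356 CPM in contralateral and 309 to 349 CPM in ipsilateral libraries, against 132 CPM in naive 3 and 296 to 323 CPM in the other naive libraries, so naive 3 stood far below all other libraries. Ciart, a direct target and repressor of the CLOCK and ARNTL pair, was at 22.9 and 21.5 CPM in contralateral 3 and 4 and 10.8 to 12.2 CPM in contralateral 1 and 2, and at 12.2 to 20.7 CPM in ipsilateral libraries, against 11.9 to 16.6 CPM in naive libraries. As with Dbp, the highest libraries were those of CCI mice 3 and 4, with a log2 fold change between mice of 0.23 (SE 0.20) for Ciart. For the replicate number, Bhlhe40, a repressor of the clock that activity also induces, was the only 1 of the 32 at an unadjusted p under 0.05 (0.0108; edgeR adjusted p = 1.00), a share near the 3.34% of all tested genes. Hlf, Cipc, Rora and Arntl2 followed.

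Outside the clock pathway, genes with a pattern like that of Dbp were looked for by Pearson r over the 12 libraries, with group means removed. The closest of 14111 genes were Fcho1, Pon2, Iqsec2, Baalc and Kcnj16, with r of 0.96 to 0.97. Fcho1 (endocytosis) was at 88.7 to 126 CPM in contralateral and 93.01 to 109 CPM in ipsilateral libraries, against 96.4 to 107 CPM in naive libraries. The closest to Arntl were Cacna1c, a calcium channel gene, Fzd1, Mamdc2, Pcdh20 and Tmem53, with r of 0.91 to 0.92, and Mamdc2 lay below 1.72 CPM in every library. These genes were picked as the highest of many, over libraries that share mice, so the r values are descriptions.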

How the data were processed

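Per the file headers, the deposited table holds a raw count and an FPKM value for each gene in each library. HISAT2 2.0.4 and the GRCm38/mm10 build are listed, without a role, in the submitters' processing notes, and per the labels libraries came from an Illumina mRNA kit. No source used here names the counting program, its strand setting or the gene annotation. FPKM served only to order genes by level. Total counts were 16.1 to 20.6 M, and intervals cover counting error and the spread between samples.

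Counts were tested in R 4.3.3 with edgeR 4.0.16 (TMM, filterByExpr by group, robust quasi-likelihood fits), with 12 libraries in 3 groups (15808 genes) or with 8 mice after summing the hemispheres of each CCI mouse (16179 genes), two-sided. The test was checked on simulated counts of independent libraries, with larger changes than those of the members. That check does not speak to differences as small as those seen here. Log2 CPM used a prior count of 2. The replicate number was tested as a factor beside the group. Alternatives were RLE and upper quartile factors, no filter, limma 3.58.1 voom, DESeq2 1.42.0, only the groups compared, a replicate block, single hemispheres, and each library or mouse left out. The rule named the 10 members, clock list genes past the threshold or else the 5 of smallest p, and the 5 genes closest to Dbp and to Arntl. Members and lists were chosen with earlier results of these data known. Deviations from group means correlated between -0.137 and 0.0601 for left and right libraries of the same number. For CCI and naive libraries of the same number they correlated between -0.0905 and 0.103, and the main fits have no block. Over all tested genes these values do not bear out the reading that same-numbered sides come from the same mouse. The comparison with summed hemispheres rests on that reading, and a fit with a block is given as an alternative. Promoter sequences are RefSeq's for GRCm38.p6 (250 bases before to 50 after a start site), found for 9 of 10 members.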

Additional observations from a re-analysis of the deposited data

Results flagged for a closer look

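A sample stood apart from the other 3 of its group by Dixon's criterion, the gap to its nearest neighbour over the range, in 4 of 40 groups of 4, where chance gives about 1 in 20. Per2 was at 51.08 CPM in CCI mouse 4, beside 40.3 to 42.0 CPM in the other CCI mice. Cry1 was at 14.07 CPM in naive 4, beside 12.7 to 12.8 CPM in the other naive libraries. Arntl was at 30.82 CPM in contralateral 2, beside 39.5 to 41.2 CPM in the other contralateral libraries. Nr1d2 was at 115 CPM in CCI mouse 1, beside 119 to 120 CPM in the other CCI mice, a gap that is small in absolute terms.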

How the results depend on the processing

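No member passed in any of 87 alternatives, and the lowest adjusted p of a member was 0.157, for Clock and the replicate number without CCI mouse 3. Dbp, Per3, Arntl, Nr1d1 and Nr1d2 kept their sign against naive in every alternative, and Dbp between mice was at 0.20 to 0.33 with each mouse left out in turn. A replicate block changed no member call (40 results, lowest adjusted p 0.821), and same-numbered libraries share only a number. Depth limits Cry1 most.

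Counts of genes past the threshold moved as follows. For contralateral against naive (0 genes) DESeq2 gave 3, only the 2 groups compared 1, the replicate block 1 and leaving out a library 0 to 2. For ipsilateral against naive (0 genes) these gave 9, 7, 1 and 0 to 2. Between hemispheres (0 genes) leaving out a library gave 0 to 159. Between mice (0 genes) no filter gave 5, DESeq2 31, the replicate block 1 and leaving out a mouse 0 to 6. For the replicate number (11 genes) no filter gave 29, DESeq2 74, limma voom 5 and leaving out a mouse 6 to 35.

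Under other settings of the fit, signs turned for 3 results, all with main values far smaller than their SE, and the cause was not tested. The main values were 0.0047 (SE 0.13) for Cry1, ipsilateral against naive, and 0.00011 (SE 0.05) for Cry2 and 0.0044 (SE 0.10) for Per2 between hemispheres. Cry1 for ipsilateral against naive was -0.00177 with upper quartile factors and -0.000517 with limma voom. Cry2 between hemispheres was -1.9e-05 with RLE factors, -0.000426 with no filter, -0.000692 with limma voom, -0.00046 with only the 2 groups and -0.00142 with the replicate block. Per2 between hemispheres was -0.000435 with limma voom and -0.00342 with the replicate block.

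With libraries or mice left out in turn, signs also turned for larger values, among them Per1 (-0.16) and Clock (-0.18) for contralateral against naive. The contralateral against naive values ran from -0.235 to 0.0127 for Per1 (without naive 4), -0.012 to 0.154 for Per2, -0.00417 to 0.0511 for Cry2 and -0.273 to 0.025 for Clock (without naive 3). The ipsilateral against naive values ran from -0.115 to 0.0664 for Cry1, -0.00398 to 0.0325 for Cry2 and -0.121 to 0.244 for Clock. Between hemispheres they ran from -0.103 to 0.0692 for Per2, -0.017 to 0.0361 for Cry2, -0.0661 to 0.0653 for Arntl, -0.00506 to 0.161 for Dbp (without contralateral 4) and -0.0749 to 0.0364 for Nr1d1. Between mice they ran from -0.00235 to 0.0339 for Cry2 and -0.198 to 0.146 for Clock.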
